A study of Oncorhynchus mykiss with 27 samples.

Results

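The interaction of Fsh and trilostane in rainbow trout testis explants is the amount by which the response to Fsh differed when trilostane was present. It was computed for each cDNA clone as the response with trilostane (Fsh+Tri minus Tri) minus the response without it (Fsh minus Ctrl), on the log2 scale. The contrast used 24 of the 27 arrays of the series, those of explants cultured for 96 h, and left out 3 arrays of uncultured tissue. The array holds 9024 clones besides the water and vector spots, and 4565 of them passed the filters on missing and low values and were tested. Names were known for 102 clones, all of which were tested.

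The explants were pieces of testis from all-male trout that were mixed and then shared out among wells. They were cultured with Fsh at 500 ng/mL and trilostane at 10 µg/mL together (Fsh+Tri), with trilostane alone at the same dose (Tri), with Fsh alone at the same dose (Fsh), or with neither (Ctrl), with 6 arrays per treatment. By the study's methods all wells were filled from the same pool, so that the p-values measure the spread between wells and not between fish.

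Fsh is a pituitary gonadotropin that acts on Sertoli cells, the somatic cells that nurse the germ cells, and in fish also on Leydig cells, which make steroids. Trilostane inhibits 3β-hydroxysteroid dehydrogenase, the enzyme needed to make Δ4 steroids such as testosterone and 11-ketotestosterone. The interaction therefore asks, clone by clone, whether the response to Fsh was the same when this enzyme was inhibited. A whole explant was measured, so that fewer cells of a type and less RNA per cell cannot be told apart.

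The labels give a stage of testis maturation that is not balanced over the treatments. Stage III stands on 4 of 6 Fsh+Tri arrays, 2 of 6 Tri arrays, 3 of 6 Fsh arrays and 0 of 6 Ctrl arrays, and the others are stage I-II. The study's methods, in contrast, describe every well as holding explants of both stages. What a stage label on a single well stands for is therefore not settled, and values given for stage I-II arrays are values for arrays with that label. Of the image files, 2 of Tri, 1 of Fsh and 1 of Ctrl came from a newer software version. The SD of the residuals over all tested clones was between 0.215 and 0.374 on 23 arrays and 0.503 on Ctrl replicate 4. All of the 4 Sertoli cell markers with a name (*amh*, *inha*, *dmrt1*, *cldn11*) and the Leydig cell enzyme *hsd3b1* passed the filter on level. So did all 102 named clones. The study had already filtered them on level on these arrays, so their passing does not show which cells were present.

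The interaction passed at an adjusted p under 0.05 (limma) for 3 clones, which is 0.0657% of those tested, and it was negative in all 3. They encode the vasotocin precursor *vt1*, the anion transporter *slc26a4* and a 14 kDa apolipoprotein. At an unadjusted p under 0.05 the interaction was below 0 for 116 clones (2.54%) and above 0 for 243 (5.32%). The median interaction of all clones tested was 0.04, and the central 98% lay between -0.72 and 0.71. This balance of signs changed with the scaling of the arrays. It was 180 below and 136 above with cyclic loess, and 244 below and 200 above on spot intensities without the correction for spotted cDNA.

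The named clones lay on the other side. The interaction was below 0 for 75 of the 102 (43.3% of all clones tested were below 0) and above 0 for 27 (56.7% of all), with a median of -0.25. At an unadjusted p under 0.05, 24 were below and 8 above. Among the 4463 clones without a name, 92 were below and 235 above, with a median of 0.05. The study had chosen the named clones on these same arrays for their response to Fsh, with or without trilostane, and 67 of them rose with Fsh alone here, while 8 fell. The balance in the named clones is therefore not independent of that choice.

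Changed responses were sorted by a rule applied equally in both directions. A response counted as weakened where Fsh alone changed the clone at an adjusted p under 0.05 and the interaction had the opposite sign at an unadjusted p under 0.05. It counted as strengthened where Fsh changed the clone at an adjusted p under 0.05 with trilostane and the interaction had the same sign. Here too the interaction had to have an unadjusted p under 0.05. Of the 82 clones that Fsh alone raised (1.8% of those tested), 31 had a weakened rise (0.679%), and 22 of the 31 had a name. Their median response was 0.14 with trilostane and 0.78 without. Of the 17 clones that Fsh alone lowered (0.372%), 7 had a weakened fall (0.153%), with a median response of 0.06 with trilostane and -0.60 without. With trilostane, Fsh raised 15 clones (0.329%), and 5 of these rises were strengthened (0.11%), with a median response of 0.66 with trilostane and 0.07 without. The 1 clone that Fsh lowered with trilostane (0.0219%) was not among the strengthened responses. The responses and the interaction share arrays, so these counts describe the clones and are not a further test. Without Ctrl replicate 4 the counts were 23 weakened rises, 24 weakened falls, 13 strengthened rises and 3 strengthened falls.

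**Figure D1:**
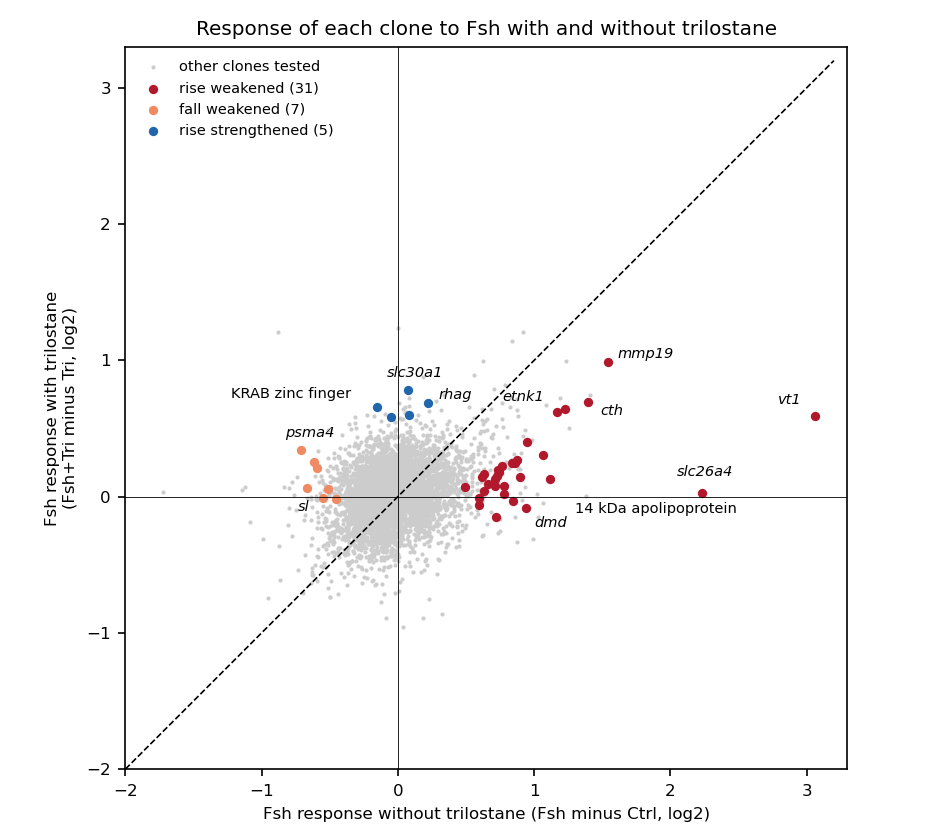
Each point is a cDNA clone, placed by its response to Fsh with trilostane (vertical axis, Fsh+Tri minus Tri, log2) and without it (horizontal axis, Fsh minus Ctrl, log2). The dashed line marks equal responses: the 31 weakened rises (red) lie below it to the right, led by *vt1* and *slc26a4*, the 7 weakened falls (orange) above it to the left, and the 5 strengthened rises (blue) above it near a response of 0 without trilostane.

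Among hormones and growth factors, 10 clones had a name, and the interaction was below 0 for 8, with 2 below and 1 above at an unadjusted p under 0.05. Of all 102 named clones, 75 were below 0, with 24 below and 8 above at that threshold. *vt1* (clone 1rt34l03_b_f02) encodes the precursor of vasotocin, the fish counterpart of vasopressin, and its carrier neurophysin. Its lowest, median and highest log2 signals were 6.21, 6.31 and 6.91 on Fsh+Tri arrays, 5.58, 5.96 and 6.04 on Tri arrays, 8.72, 9.09 and 9.50 on Fsh arrays, and 5.89, 6.04 and 6.25 on Ctrl arrays. The Fsh arrays thus stood alone, more than 1 unit above every other array, while Fsh+Tri arrays lay above all Tri arrays by a small margin. The medians on Fsh+Tri, Tri and Ctrl arrays were below the median signal of the arrays, about 6.40. Low signal thus limits how well the size of the response with trilostane could be seen. The response was 1.51-fold with trilostane (log2 0.59, standard error 0.15, adjusted p = 0.0763) and 8.36-fold without (log2 3.06, standard error 0.15, adjusted p = 2.24e-15). Their difference was -2.47 (standard error 0.21, adjusted p = 6.22e-09). Trilostane lowered *vt1* with Fsh (log2 change -2.63, adjusted p = 8.32e-14), and the Tri and Ctrl arrays differed by -0.16 (95% confidence interval -0.47 to 0.15). This interaction passed in every setting in which the clone was tested, with values from -2.56 to -2.40. Restricted to the 15 stage I-II arrays, it was -2.54 (adjusted p = 8.04e-05).

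*it* encodes isotocin, the other neurohypophysial nonapeptide of fish and the counterpart of oxytocin. Its signal spanned 5.43, 5.88 and 6.07 on Fsh+Tri arrays (lowest, median and highest), 5.22, 5.77 and 6.14 on Tri arrays, 6.12, 6.38 and 7.11 on Fsh arrays, and 5.15, 5.70 and 6.28 on Ctrl arrays. Every Fsh array was above every Fsh+Tri array, and the Fsh and Ctrl arrays overlapped. All of these medians were below the median signal of the arrays, about 6.40, so that low signal limits this clone. The response was 0.08 with trilostane and 0.78 without (adjusted p = 0.0167), and the interaction of -0.70 (standard error 0.26) did not pass (adjusted p = 0.557). Both neurohypophysial precursors thus rose with Fsh alone. Whether their interactions differ from each other was not tested.

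*inha* encodes the α subunit of inhibin, a Sertoli cell hormone that feeds back on Fsh. It rose with Fsh alone by 1.41 (adjusted p = 0.00229) and had a response of 0.75 with trilostane (adjusted p = 0.309). The interaction of -0.67 had an interval that included 0 (-1.45 to 0.12), and was -0.28 without Ctrl replicate 4, whose value of 7.98 was the lowest, the next Ctrl array being at 10.03. *amh*, anti-Müllerian hormone of Sertoli cells, had an interaction of -0.27 (95% confidence interval -0.87 to 0.33), or -0.04 without Ctrl replicate 4. *sl* encodes somatolactin, a hormone of the growth hormone family, and had a weakened fall. It measured 9.66, 9.90 and 10.09 on Fsh+Tri arrays (lowest, median and highest), 9.69, 9.97 and 10.08 on Tri arrays, 7.86, 8.18 and 8.29 on Fsh arrays, and 8.38, 8.64 and 8.96 on Ctrl arrays. Both treatments with trilostane lay above all others and overlapped each other, while all Fsh arrays were below all Ctrl arrays. The response was -0.01 with trilostane and -0.55 without (adjusted p = 0.0112), with an interaction of 0.54 (standard error 0.18, adjusted p = 0.514) that was 0.29 on the stage I-II arrays. Trilostane raised *sl* by 1.77 with Fsh (adjusted p = 7.12e-12) and by 1.23 without (adjusted p = 7.42e-08).

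In the transport group 6 of 8 named clones had an interaction below 0, close to the share of all named clones (75 of 102). *slc26a4* (clone tcbk0013.j.13) encodes a protein similar to anion exchangers of solute carrier family 26. On Fsh+Tri arrays its lowest, median and highest signals were 5.12, 5.58 and 6.16, on Tri arrays 5.05, 5.51 and 6.47, on Fsh arrays 9.11, 9.55 and 9.75, and on Ctrl arrays 6.83, 7.04 and 8.11. All arrays with trilostane lay below all arrays without it, and only without it were the Fsh arrays clear of their controls. Both medians with trilostane were below the median signal of the arrays, about 6.40. Low signal thus limits how well a small remaining response to Fsh could be seen there. The response was 0.03 with trilostane (95% confidence interval -0.43 to 0.48) and 2.23 without, a 4.69-fold rise (adjusted p = 1.15e-07), and the interaction was -2.20 (standard error 0.32, adjusted p = 0.000226). Trilostane lowered *slc26a4* both with Fsh (log2 change -3.89, adjusted p = 8.32e-14) and without (-1.69, adjusted p = 1.62e-05). On the stage I-II arrays alone the interaction was -2.37 but did not pass (adjusted p = 0.136), with 2 Fsh+Tri arrays in that fit.

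The volume-regulated channel subunit *lrrc8* was on the array as a pair of clones, with interactions of -0.54 (clone 1) and -0.47 (clone 2). For clone 1 the highest Fsh+Tri array and the lowest Fsh array were both at 7.04 after rounding. Neither interaction passed (adjusted p = 0.557 for clone 1 and 0.713 for clone 2), and that of clone 2 was -0.25 without Ctrl replicate 4. That of clone 1 was -0.33 on the stage I-II arrays. The other direction held for *slc30a1* and *rhag*. *slc30a1* encodes a zinc exporter of the plasma membrane. Its lowest, median and highest signals were 8.96, 9.36 and 9.47 on Fsh+Tri arrays, 8.19, 8.55 and 8.91 on Tri arrays, 8.47, 8.70 and 9.22 on Fsh arrays, and 8.24, 8.68 and 9.02 on Ctrl arrays. Fsh+Tri arrays lay above all Tri arrays, while Fsh and Ctrl arrays overlapped. Fsh raised it by 0.79 with trilostane (adjusted p = 0.00969) and had a response of 0.07 without (95% confidence interval -0.23 to 0.38), with an interaction of 0.71 (standard error 0.21, adjusted p = 0.496).

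*rhag* encodes an ammonia channel of the Rhesus family that is known from red blood cells. It measured 6.93 to 7.88 on Fsh+Tri arrays, 6.51 to 6.83 on Tri arrays, 6.05 to 6.75 on Fsh arrays and 6.15 to 6.53 on Ctrl arrays. All Fsh+Tri arrays were above every other array. The response was 0.68 with trilostane (adjusted p = 0.0296) and 0.22 without, with an interaction of 0.46 (standard error 0.21, adjusted p = 0.603), or 0.74 on the stage I-II arrays. *rhag* was the only named marker of red blood cells, and the part of a change in their number was not tested.

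Lipid metabolism had 12 named clones, of which 10 had an interaction below 0, beside 75 of 102 for all named clones. The 14 kDa apolipoprotein (clone tcad0006.n.10), a lipid carrier of fish plasma, had 6.68, 6.94 and 7.03 on Fsh+Tri arrays (lowest, median and highest), 6.59, 6.70 and 7.11 on Tri arrays, 7.60, 7.89 and 8.29 on Fsh arrays, and 6.41, 6.85 and 7.05 on Ctrl arrays. Every Fsh array was above every array of the other treatments, which overlapped one another. The response was 1.09-fold with trilostane (log2 0.13, 95% confidence interval -0.15 to 0.40) and 2.17-fold without (log2 1.12, adjusted p = 2.65e-06), and the interaction was -0.99 (standard error 0.19, adjusted p = 0.0196). The call did not pass on the stage I-II arrays (-1.21, adjusted p = 0.827), on the arrays of the older software version, with Holm's adjustment, or without Fsh replicates 5 or 6 or Fsh+Tri replicates 4 or 5, where its interaction kept its sign.

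*etnk1*, ethanolamine kinase of phospholipid synthesis, rose by 1.22 with Fsh alone (adjusted p = 0.000192) and had a response of 0.64 with trilostane (adjusted p = 0.155), with an interaction of -0.58 (adjusted p = 0.613), or -0.99 on the stage I-II arrays. Leaving out single arrays gave -0.74 to -0.40, and the unadjusted p stayed under 0.05 in 15 of these 24 fits. A clone similar to acyl-CoA thioesterase 11, which releases fatty acids from coenzyme A, had 0.22 with trilostane and 0.76 without (adjusted p = 0.00754). *gpam*, mitochondrial glycerol-3-phosphate acyltransferase, which starts triglyceride synthesis, went the other way. Its lowest, median and highest signals were 6.64, 6.67 and 7.10 on Fsh+Tri arrays, 5.92, 6.19 and 6.38 on Tri arrays, 6.11, 6.38 and 6.84 on Fsh arrays, and 6.19, 6.56 and 6.64 on Ctrl arrays. The Fsh+Tri arrays were above all Tri arrays, and the Tri arrays were lowest by median. The Tri and Fsh medians were below the median signal of the arrays, about 6.40, so that low signal limits this clone. Fsh raised *gpam* by 0.58 with trilostane (adjusted p = 0.0411), against a response of -0.05 without, and the interaction was 0.63 (standard error 0.19, adjusted p = 0.51). The clone of *hsd3b1*, the enzyme that trilostane inhibits, had nearly equal responses of 0.50 with trilostane and 0.46 without, with an interaction of 0.04 (95% confidence interval -0.38 to 0.45). Fatty acid synthase, *fasn*, had interactions of -0.41 and -0.08 on its clones 1 and 2, and both intervals included 0.

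**Figure D2:**
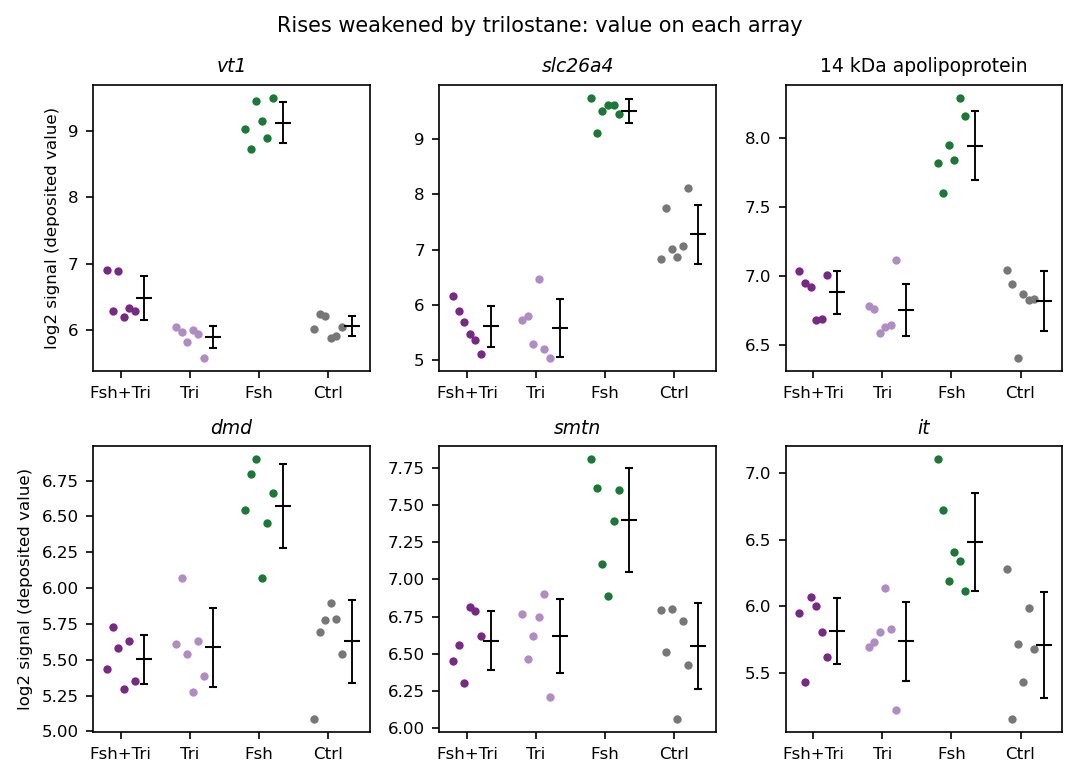
Deposited log2 signal (vertical axes, which do not start at 0) on each of 6 arrays per treatment for 6 clones with weakened rises; points are arrays and bars mean ± SD. The Fsh arrays stand highest by median in each panel, and the Fsh+Tri arrays overlap the Tri arrays except for *vt1*; for *slc26a4* the Ctrl arrays lie above both treatments with trilostane.

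The cytoskeleton and adhesion group held 3 clones at an unadjusted p under 0.05, all below 0, and its 10 members split into 6 below and 4 above. Of all 102 named clones, 75 were below 0, and 24 of them at that threshold. *dmd* encodes dystrophin, which links actin to the extracellular matrix. Its signal was 5.30, 5.51 and 5.73 on Fsh+Tri arrays (lowest, median and highest), 5.28, 5.58 and 6.07 on Tri arrays, 6.07, 6.60 and 6.90 on Fsh arrays, and 5.08, 5.73 and 5.89 on Ctrl arrays. The Fsh arrays lay above all Fsh+Tri and all Ctrl arrays. The medians on Fsh+Tri, Tri and Ctrl arrays were below the median signal of the arrays, about 6.40. Low signal thus limits how well a small response with trilostane could be seen. The response was -0.08 with trilostane and 0.94 without (adjusted p = 0.000368), and the interaction of -1.03 (standard error 0.22) missed the threshold (adjusted p = 0.066). It passed without Ctrl replicate 4 (-1.08, adjusted p = 0.0359), without Fsh replicate 4 and without Tri replicate 4. It did not pass with any other single array left out (adjusted p up to 0.164) or on the stage I-II arrays (-1.19, adjusted p = 0.953).

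*smtn*, smoothelin of contractile smooth muscle cells, had a response of -0.03 with trilostane and 0.85 without (adjusted p = 0.00229). All its Fsh arrays (6.89 to 7.81) were above all Fsh+Tri arrays (6.30 to 6.81) and all Ctrl arrays (6.06 to 6.80), and its interaction was -0.88 (standard error 0.23, adjusted p = 0.322). On the stage I-II arrays it was -0.53. *fblim1*, filamin-binding LIM protein 1 of cell adhesions, had 0.02 with trilostane and 0.78 without (adjusted p = 0.00478), with an interaction of -0.76 (adjusted p = 0.51). *des*, the intermediate filament desmin of muscle, had nearly equal responses. It fell by 0.71 with trilostane (adjusted p = 0.0248) and by 0.70 without (adjusted p = 0.00754), and its interaction was -0.01 (95% confidence interval -0.45 to 0.42). The medians of *des* on Fsh+Tri and Fsh arrays, 5.94 and 5.92, were below the median signal of the arrays, about 6.40. Low signal thus limits how well a difference between the falls could be seen.

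The keratins *krt12* and *krt18* had interactions above 0. Fsh raised *krt12* with trilostane on both clones, by 0.89 on clone 1 (adjusted p = 0.0184) and 1.14 on clone 2 (adjusted p = 0.00077), and the responses without it were 0.56 and 0.84. The interactions of 0.33 and 0.31 were within their error (95% confidence intervals -0.20 to 0.85 and -0.21 to 0.82), and that of clone 2 was 0.11 without Ctrl replicate 4. *krt18* had a response of -0.37 with trilostane and -0.87 without (adjusted p = 0.0334), with an interaction of 0.51 (95% confidence interval -0.14 to 1.16), or 0.70 without Ctrl replicate 4 and 0.01 on the stage I-II arrays. *cldn11*, a claudin of the Sertoli cell barrier, was lower on Fsh+Tri than on Fsh arrays (log2 difference -0.69, adjusted p = 0.0234), but its responses were similar, 0.49 with trilostane and 0.65 without, with Tri minus Ctrl at -0.52, and the interaction was -0.17, or close to 0 without Ctrl replicate 4.

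Of the 8 clones of other metabolism, 4 were below 0 at an unadjusted p under 0.05, beside 24 of all 102 named clones and 2.54% of all clones tested. *cth* and *cbs* encode cystathionine γ-lyase and cystathionine β-synthase, successive enzymes that turn homocysteine into cysteine. *cth* had 7.33, 7.57 and 7.79 on Fsh+Tri arrays (lowest, median and highest), 6.69, 6.80 and 7.17 on Tri arrays, 8.39, 8.63 and 8.83 on Fsh arrays, and 6.31, 7.31 and 7.68 on Ctrl arrays. The Fsh arrays were above all others, and the Fsh+Tri arrays were above all Tri arrays. Its response was 0.69 with trilostane (adjusted p = 0.0567) and 1.40 without (adjusted p = 2.65e-06), with an interaction of -0.71 (standard error 0.24, adjusted p = 0.514). The interaction was -0.52 without Ctrl replicate 4.

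*cbs* reached nearly the same level on Fsh+Tri arrays (median 7.41) and Fsh arrays (median 7.40). Its interaction of -0.55 (adjusted p = 0.609) was set by the arrays without Fsh, with medians of 6.89 for Tri and 6.38 for Ctrl. *ndpkz3*, a nucleoside diphosphate kinase, had a response of 0.25 with trilostane and 0.86 without (adjusted p = 0.000192) and an interaction of -0.61 (adjusted p = 0.514). The testis-specific glyceraldehyde-3-phosphate dehydrogenase *gapdhs*, of sperm glycolysis in mammals, had 0.14 with trilostane and 0.61 without (adjusted p = 0.0184). Its interaction was -0.47, or -0.74 on the stage I-II arrays and -0.35 without Ctrl replicate 4. *pgd*, of the pentose phosphate pathway, was higher with trilostane whether or not Fsh was present, by 1.02 with Fsh (adjusted p = 0.000704) and 0.89 without (adjusted p = 0.00964), and had an interaction of 0.13 (95% confidence interval -0.40 to 0.66), or 0.29 without Ctrl replicate 4.

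Proteases and their inhibitors gave 10 named clones, with 2 below 0 at an unadjusted p under 0.05, beside 24 of all 102 named clones. *mmp19*, a matrix metalloproteinase, measured 7.22, 7.55 and 8.15 on Fsh+Tri arrays (lowest, median and highest), 6.36, 6.57 and 6.92 on Tri arrays, 8.55, 8.90 and 9.08 on Fsh arrays, and 6.72, 7.45 and 7.91 on Ctrl arrays. Fsh arrays were above their controls in both settings. Fsh raised it by 0.98 with trilostane (adjusted p = 0.00465) and 1.54 without (adjusted p = 1.36e-06), so that a rise remained on a lower base, and the interaction was -0.55 (standard error 0.25, adjusted p = 0.594). Cathepsin L, *ctl1*, a lysosomal protease, had 0.62 with trilostane (adjusted p = 0.141) and 1.17 without (adjusted p = 0.000175), with an interaction of -0.55, or -0.40 without Ctrl replicate 4.

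Other members had interactions within their error. Fsh raised *tfpi2*, an inhibitor of serine proteases, by 1.20 with trilostane (adjusted p = 1.06e-05) and 0.92 without (adjusted p = 0.000192), and the interaction was 0.29 (95% confidence interval -0.13 to 0.70). *hgfa*, a serine protease that activates hepatocyte growth factor, rose by 1.00 with trilostane (adjusted p = 0.00969) and had a response of 0.63 without (adjusted p = 0.0885), with an interaction of 0.37 (95% confidence interval -0.18 to 0.92), or 0.56 without Ctrl replicate 4. The cathepsins S *ctss* and *ctssb1*, known from antigen-presenting cells, had interactions of 0.03 and -0.08.

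Of 13 transcription factors and DNA-binding proteins, 5 were below 0 and 2 above at an unadjusted p under 0.05. The counts for all 102 named clones were 24 below and 8 above, and the shares of all clones tested were 2.54% and 5.32%. The CCAAT/enhancer-binding protein *cebpd2* measured 6.65, 6.97 and 7.22 on Fsh+Tri arrays (lowest, median and highest), 6.31, 6.66 and 6.85 on Tri arrays, 7.51, 7.83 and 8.14 on Fsh arrays, and 6.05, 6.91 and 7.04 on Ctrl arrays. The Fsh arrays stood above all others. Its response was 0.31 with trilostane and 1.06 without (adjusted p = 9.23e-05), with an interaction of -0.76 (standard error 0.22, adjusted p = 0.491). The related *cebpd1* and *cebpb*, named here after their values were seen, had interactions of -0.59 and -0.56, and that of *cebpb* had an interval that included 0 (-1.21 to 0.08) and was -0.34 without Ctrl replicate 4.

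*n-pac*, a nuclear factor that binds nucleosomes, had a response of 0.27 with trilostane and 0.88 without (adjusted p = 0.00307), with an interaction of -0.61, or -0.39 on the stage I-II arrays. *dmrt1*, a transcription factor of Sertoli and germ cells, had 0.44 with trilostane and 0.80 without (adjusted p = 0.00153), with an interaction of -0.36 (95% confidence interval -0.78 to 0.06). *purg*, a DNA- and RNA-binding protein of the Pur family, had a negative interaction without a rise. It measured 7.31 to 8.32 on Fsh+Tri arrays and 8.37 to 8.97 on Tri arrays, without overlap, against 7.99 to 8.95 on Fsh arrays and 8.29 to 8.70 on Ctrl arrays. Its response was thus -0.70 with trilostane (adjusted p = 0.067) and -0.02 without, with an interaction of -0.68 (adjusted p = 0.543), which was -0.16 on the stage I-II arrays. The study lists *purg*, *zfp658* and *tmem106a* as lowered by Fsh only with trilostane. Median signals of *zfp658* were 7.73 on Fsh+Tri, 8.38 on Tri, 8.05 on Fsh and 8.33 on Ctrl arrays. Those of *tmem106a* were 9.45, 10.06, 9.77 and 9.99. Leaving out single arrays gave *zfp658* interactions of -0.71 to -0.49 (adjusted p from 0.406 to 0.786).

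The clone of a KRAB zinc finger protein, a class of DNA-binding repressors, and *e2f4*, a repressor of cell cycle genes, were above 0. The KRAB zinc finger clone measured 8.10, 8.23 and 8.66 on Fsh+Tri arrays (lowest, median and highest), 7.52, 7.64 and 7.77 on Tri arrays, 7.67, 7.87 and 8.19 on Fsh arrays, and 7.38, 8.06 and 8.57 on Ctrl arrays. Only the arrays with trilostane separated by Fsh, and the Ctrl arrays had the widest spread. The response was 0.66 with trilostane (adjusted p = 0.0411) and -0.16 without, and the interaction was 0.82 (standard error 0.21, adjusted p = 0.322). *e2f4* had a response of 0.61 with trilostane (adjusted p = 0.0567) and 0.05 without, with an interaction of 0.56 (adjusted p = 0.557). That estimate was 0.44 without Ctrl replicate 4 and 0.42 on the stage I-II arrays. On spot intensities without the correction for spotted cDNA it was 0.27. The Tri arrays of *e2f4* (6.29 to 6.63) were below all arrays of the other treatments, which had medians between 6.95 and 7.07.

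Among 9 clones of protein and RNA handling, the 1 at an unadjusted p under 0.05 was *psma4*, an α subunit of the proteasome core, and its interaction was the highest of the named clones. It measured 9.03, 9.42 and 9.59 on Fsh+Tri arrays (lowest, median and highest), 8.47, 9.13 and 9.51 on Tri arrays, 8.66, 8.91 and 9.26 on Fsh arrays, and 9.33, 9.69 and 9.94 on Ctrl arrays. Fsh arrays were below all Ctrl arrays, while Fsh+Tri and Tri arrays overlapped. The response was 0.35 with trilostane (adjusted p = 0.414) and -0.71 without (adjusted p = 0.0123), so that the estimates had opposite signs, and the interaction was 1.05 (standard error 0.23, adjusted p = 0.066). It passed without Ctrl replicate 3, Fsh replicate 1, Tri replicate 3 or Fsh+Tri replicate 3. It did not pass with any other single array left out or on the stage I-II arrays. *rbm47*, an RNA-binding protein, had interactions of -0.52 and -0.76 on its clones 1 and 2, and *canx*, the chaperone calnexin of the endoplasmic reticulum, one of -0.58. The interval of each of these 3 clones included 0, and without Ctrl replicate 4 the estimates were -0.35, -0.41 and -0.41.

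In the group of other or unknown function, *stk3*, a kinase of the Hippo pathway, had a strengthened rise. It measured 10.73 to 11.24 on Fsh+Tri arrays, 10.26 to 10.88 on Tri arrays, 10.18 to 10.67 on Fsh arrays and 10.00 to 10.52 on Ctrl arrays. The Fsh+Tri arrays were above all Fsh arrays and overlapped the Tri arrays through Tri replicate 2. The response was 0.60 with trilostane (adjusted p = 0.0296) and 0.08 without, with an interaction of 0.52 (standard error 0.19, adjusted p = 0.514). A clone similar to the receptor tyrosine phosphatase *ptprf* had 0.14 with trilostane and 0.90 without (adjusted p = 0.00282) and an interaction of -0.75 (adjusted p = 0.514), and *tpd52l1*, tumor protein D53, one of -0.57 (adjusted p = 0.564).

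**Figure D3:**
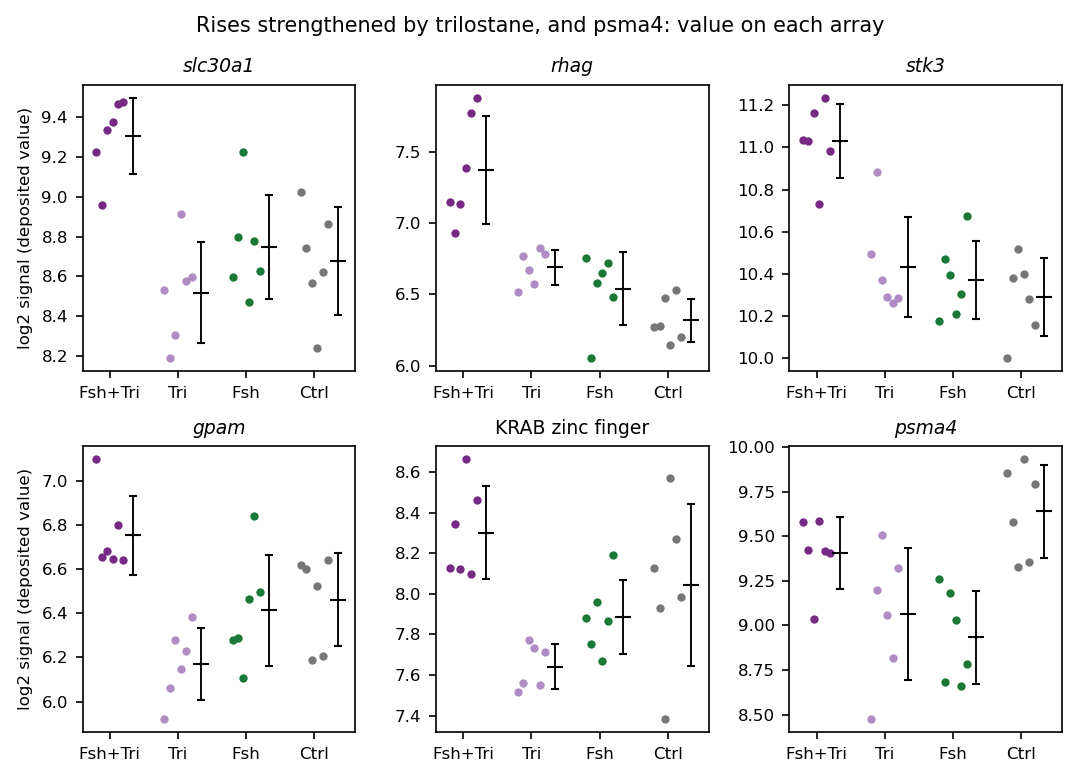
Deposited log2 signal (vertical axes, which do not start at 0) on each of 6 arrays per treatment for the 5 clones with strengthened rises and for *psma4*; points are arrays and bars mean ± SD. In the 5 strengthened rises the Fsh+Tri arrays are highest by median. The Tri arrays are lowest by median in *gpam*, *slc30a1* and the KRAB zinc finger clone, but not in *rhag*. In *stk3* the Tri and Ctrl medians are both 10.33 after rounding. In *psma4* the Fsh arrays lie below the Ctrl arrays.

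No member of the cell division or antigen presentation groups reached an unadjusted p under 0.05. All 5 of cell division were below 0, with a median of -0.19, beside 75 of all 102 named clones and a median of -0.25. *cenpa*, the centromeric histone, had responses of -0.59 with trilostane and -0.40 without, *mcm7*, of the replicative helicase, -0.50 and -0.37, and cyclin E1, *ccne1*, -0.62 and -0.60. Cyclin G1, *ccng1*, went the other way, with medians of 7.39 on Fsh+Tri, 7.19 on Tri, 7.36 on Fsh and 6.86 on Ctrl arrays. Its interaction of -0.33 was the lowest of the group. At an adjusted p under 0.05, Fsh alone raised 1 of the 5 clones and lowered none. With trilostane Fsh changed none of them at that threshold. The interaction of *cenpa* was 0.24 and that of *mcm7* was 0.01 on the stage I-II arrays. The 4 clones of antigen presentation had estimates above 0, with a median of 0.16, beside 27 of all 102 named clones. The sign was not stable in 3 of these 4. The interaction was 0.49 for clone 2 of the class I gene *onmy-uba* (95% confidence interval -0.01 to 0.99) and 0.11 for its clone 1, 0.21 for MHC class II alpha, and 0.05 for the class II beta gene *onmydab*. Without Ctrl replicate 4 these estimates were 0.51, 0.32, 0.48 and 0.21. The sign changed in 7 of 40 settings for *onmydab*, in 2 of 40 for clone 1 of *onmy-uba* and in 1 of 39 for MHC class II alpha, and leaving out single arrays brought them down to -0.07, -0.01 and 0.05. MHC class II alpha was higher on Fsh+Tri than on Fsh arrays by 0.87 (adjusted p = 0.0489), and clone 2 of *onmy-uba* by 0.68 (adjusted p = 0.0357). Without Fsh the medians of both were also higher with trilostane. They were 7.09 on Tri and 6.79 on Ctrl arrays for MHC class II alpha, and 7.53 and 7.08 for clone 2 of *onmy-uba*.

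**Figure D4:**
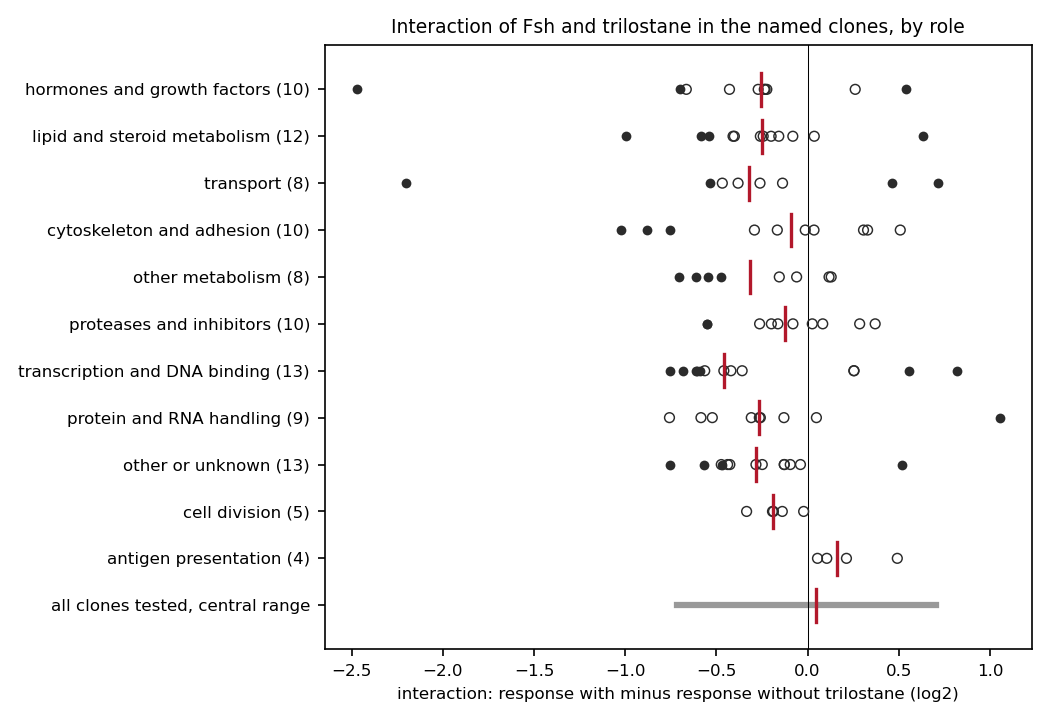
Interaction (horizontal axis, log2) of the 102 named clones by role, with the number of clones in parentheses; filled points have an unadjusted p under 0.05, open points do not, and red bars are medians. The grey bar spans the central 98% of all 4565 clones tested, -0.72 to 0.71, around a median of 0.04; antigen presentation is the only role with a median above it.

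The same interaction can be read as the effect of trilostane with Fsh minus its effect without Fsh. The clones below were chosen by the sign of the interaction on these arrays, which largely fixes which effect is larger, so the values describe the clones and nothing is read from their counts. Over the 31 weakened rises, the median effect of trilostane was -0.53 with Fsh (Fsh+Tri minus Fsh) and 0.07 without (Tri minus Ctrl). Trilostane lowered 12 of the 31 with Fsh at an adjusted p under 0.05 and raised none. The counts over all clones tested, 21 lower (0.46%) and 45 higher (0.986%), are no yardstick for clones chosen in this way. Without Fsh, trilostane lowered 1 of the 31, *slc26a4*, and over all clones lowered 3 (0.0657%) and raised 23 (0.504%). For *cth*, *fblim1*, *ndpkz3*, *cebpd2*, *smtn*, *ctl1*, *mmp19* and *dmd* the change with Fsh was between -1.27 and -0.75 and passed. None of these passed without Fsh, where the estimates ranged from -0.71 for *mmp19* (adjusted p = 0.0524) to 0.07 for *smtn*. The fall of *mmp19* with trilostane alone thus narrowly missed the threshold.

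The 5 strengthened rises had a median effect of trilostane of 0.56 with Fsh and -0.16 without. Trilostane raised *rhag* by 0.84 (adjusted p = 0.000705) and *stk3* by 0.66 (adjusted p = 0.00283) with Fsh, and the estimates without Fsh were 0.37 and 0.14. For *gpam*, *slc30a1* and the KRAB zinc finger clone the estimates had opposite signs, 0.34, 0.56 and 0.41 with Fsh and -0.29, -0.16 and -0.40 without, and none of them passed. *psma4* had the same form, 0.48 with Fsh and -0.58 without. Over the 7 weakened falls the median effect of trilostane was 0.37 with Fsh and -0.44 without, and they were not alike. Without Fsh trilostane raised *sl* and lowered the unnamed clone 1rt124f23_b_c12 (log2 change -0.70, adjusted p = 0.0449), and the effect was larger in size with Fsh in 2 of the 7.

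**Figure D5:**
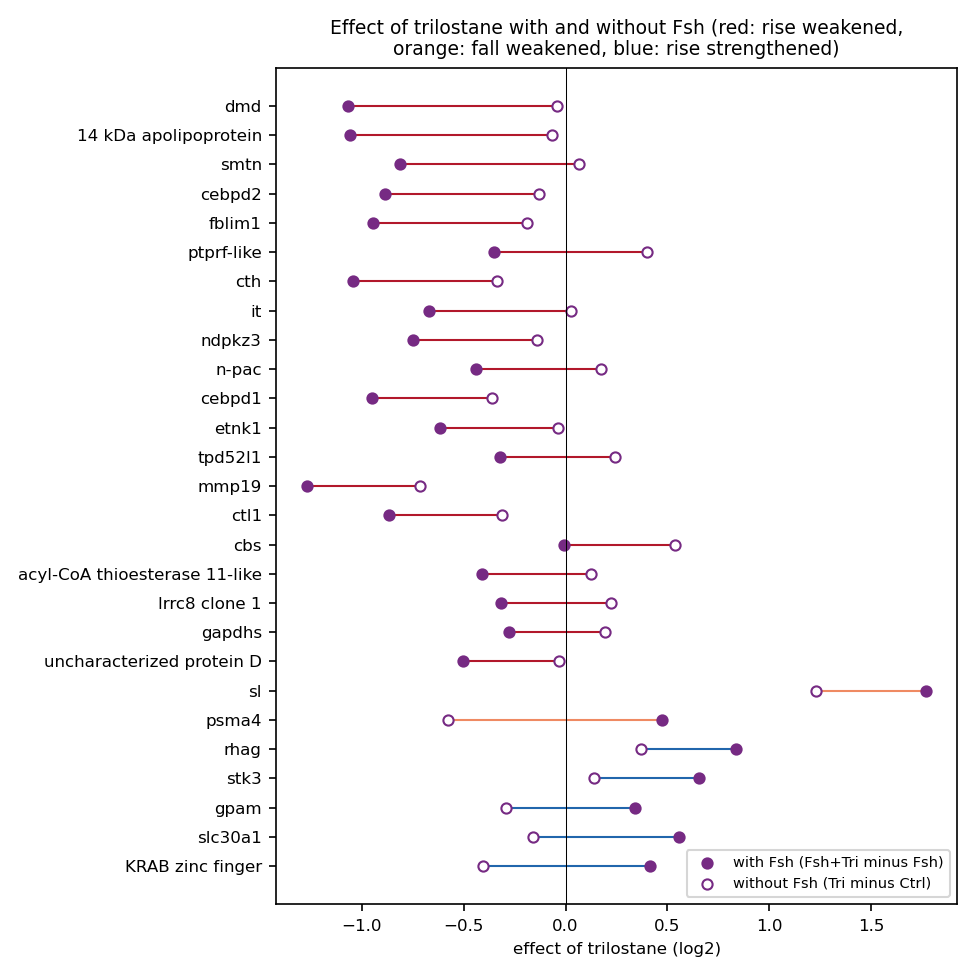
Effect of trilostane (horizontal axis, log2) with Fsh (filled, Fsh+Tri minus Fsh) and without Fsh (open, Tri minus Ctrl) for the named clones with changed responses; *vt1* (-2.63 and -0.16) and *slc26a4* (-3.89 and -1.69) are left out for scale. The distance between the points is the interaction: it is joined by a red line in weakened rises, where the filled point lies to the left, and by an orange line in weakened falls or a blue line in strengthened rises, where it lies to the right.

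Above 0, the clones without a name included larger estimates than any named clone, with larger errors. Below 0, the lowest estimate of all clones tested was that of the named *vt1* (-2.47). The lowest without a name at an unadjusted p under 0.05 were tcba0016.h.17 at -1.30 (standard error 0.43) and tcay0010.e.17 at -1.12 (standard error 0.54). In the first, Fsh replicate 3 measured 8.61 and the next Fsh array 7.07, and Tri replicate 4 measured 8.20 and the next Tri array 6.76. In the second, 1 array set the estimate, as Fsh replicate 5 measured 9.69 and the next Fsh array 6.37. The highest were tcbk0055.l.16 at 1.76 (standard error 0.73) and tcay0009.e.24 at 1.20 (standard error 0.45). In both, the Ctrl arrays reached far above the others, to 11.99 and 10.88, and without Ctrl replicate 4 the estimates were 1.16 and 0.80. None of the 4 passed after adjustment, with adjusted p between 0.514 and 0.629.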

How the data were processed

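Nylon cDNA arrays were read for 24 explant wells of 4 treatments (6 each). The study's authors scanned the arrays and deposited spot intensity files and a table of log2 values, which they had divided by a vector signal to correct for the amount of spotted cDNA and quantile normalized. The deposited log2 values were used as given. The image software differed between arrays, and each array held 8184 to 8972 values after empty ones were left out. Of 9216 rows, 192 water and vector rows were removed. Clones present on 80% or more of arrays (8244) were kept where the highest treatment mean reached the median, which left 4565. The limma package (version 3.58.1, R version 4.3.3; lmFit and eBayes) estimated 4 treatment means and 5 contrasts, with Benjamini-Hochberg adjustment over all 4565 clones and a threshold of 0.05. The script was tested on simulated data. Clone names came from the study's supplementary list, with roles assigned by hand. Clones named in the text were those that passed, the named clones among the 10 lowest and 10 highest interactions at an unadjusted p under 0.05, up to 4 per role by absolute interaction and others needed to account for a role, genes with more than 1 clone, the 2 lowest and 2 highest without a name, those the study lists as raised with trilostane, and cell type markers. *zfp658* and *tmem106a*, which the study lists as lowered by Fsh only with trilostane, were added afterwards. The clones, lists and roles were chosen with earlier results of these data known. The alternatives were other filters, scalings, adjustments, priors, stage or software terms, a replicate block, and leaving out each array. The day 0 arrays entered 1 alternative only. The number of arrays limits the precision.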

Additional observations from a re-analysis of the deposited data

Results flagged for a closer look

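The interaction of *vt1* (-2.47), *slc26a4* (-2.20) and the 14 kDa apolipoprotein (-0.99) is listed because the response to Fsh differed with trilostane by the test of the difference itself.

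Single arrays stood apart from the other 5 of their treatment in 26 of 260 groups of 6 checked, where chance marks about 1 in 20. In Ctrl replicate 4 these were *inha* at 7.98, *cth* at 6.31, *onmy-uba* clone 1 at 7.07, uncharacterized protein B at 9.35, *ctl1* at 9.75, *hgfa* at 7.12, *cebpd2* at 6.05, *lrrc8* clone 2 at 4.85 and *pgd* at 8.73, all the lowest of the Ctrl values, and *krt12* clone 2 at 9.68, the highest. The apolipoprotein was at 7.11 on Tri replicate 6 and 6.41 on Ctrl replicate 3. On Fsh+Tri arrays, *psma4* was at 9.03 and *dmrt1* at 7.49 on replicate 3, *fblim1* at 7.32 on replicate 6, *gpam* at 7.10 on replicate 1 and *onmydab* at 9.44 on replicate 4. On Tri arrays, *ndpkz3* was at 7.78 on replicate 1 and *stk3* at 10.88 on replicate 2. On Fsh arrays, *ccng1* was at 8.29 and tcba0016.h.17 at 8.61 on replicate 3, *mcm7* at 6.47, *sl* at 7.86 and *cbs* at 7.01 on replicate 4, *krt12* clone 2 at 9.02 on replicate 2, and tcay0010.e.17 at 9.69 on replicate 5.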

How the results depend on the processing

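Under 40 alternative settings no called interaction changed sign. The 3 called clones became 1 with a stricter filter on level, where *vt1* and *slc26a4* were not tested, 12 when adjusted only over clones with a 1.5-fold response, 5 on the linear scale, 5 with all 27 arrays, and 1 on the stage I-II arrays. The 1.5-fold filter used the same responses whose difference is the interaction. It thus favours clones with large interactions, and the counts under it are not comparable with the others. At an unadjusted p under 0.05 the clones below 0 were 205 with no filter, 244 on spot intensities, 180 with cyclic loess and 73 on stage I-II arrays, and those above 0 were 136 with cyclic loess and 94 on stage I-II arrays. Weakened rises numbered 49 on spot intensities, 52 with cyclic loess, 10 on stage I-II arrays and 12 with Holm's adjustment. Weakened falls numbered 3 with no filter, 3 with cyclic loess, 2 on the linear scale, 15 with array weights, 1 on stage I-II arrays and 0 with Holm's adjustment. Strengthened rises numbered 2 with no filter, 3 with the stricter filter, 3 with cyclic loess, 9 on the linear scale, 13 with array weights, 1 with stage as a term, 0 on stage I-II arrays, 2 with software version as a term, 0 with the older version only and 1 with Holm's adjustment. Strengthened falls numbered 3 with cyclic loess, 1 with a trend and robust prior, 6 with array weights and 1 with all 27 arrays. Adjusting only over clones with a 1.5-fold response, which for these classes was chosen after seeing the data, gave 38 weakened rises, 11 weakened falls, 9 strengthened rises and 5 strengthened falls. The cause was not tested. Leaving out each array in turn gave 2 to 5 called clones, 91 to 155 below 0 and 185 to 276 above 0 at an unadjusted p under 0.05, 22 to 52 weakened rises, 4 to 24 weakened falls, 1 to 13 strengthened rises and 0 to 3 strengthened falls.

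With the replicate number as a block, 3 clones were called, the same as without it, and 2 rises were strengthened. The correlation of same-numbered arrays of different treatments ranged from -0.348 to 0.211. Its mean was -0.048, beside 0.0099 for arrays with different numbers, so that no pairing by number was seen. Signal near background limits dim clones, and fewer stage I-II arrays limit that fit.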
